A study of Mus musculus with 4 samples.

Results

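The mitochondrial carriers of the Slc25 family were described in mouse embryonic stem cells after knock-down of FBL. Members were all genes whose symbol is Slc25a followed by a number, together with Ucp1, Ucp2, Ucp3, Mtch1 and Mtch2, with symbols taken from the RefSeq accession of each array probe. The rule found 46 genes read by 67 probes, of 17016 named genes and 41174 probes in all. Of the 52 family symbols in the RefSeq gene table, 6 (Slc25a2, Slc25a15, Slc25a34, Slc25a43, Slc25a53 and Slc25a54) were matched by no probe accession and were not analysed here.

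All samples were labelled Tc-inducible FBL-kd embryonic stem cells, in which FBL is expressed with tetracycline (Tc) and knocked down without it, and were grown on gelatin with leukaemia inhibitory factor (LIF). How the line was made, and whether it is 1 clone, is not stated in the labels. The 2 knock-down samples were kept without Tc for 2 days, and the 2 controls were kept with 1000 ng/mL Tc for 2 days. FBL (fibrillarin) adds methyl groups to ribosomal RNA in the nucleolus, at sites chosen by box C/D guide RNAs. Tc therefore differs between the groups together with FBL, and an effect of Tc itself cannot be told apart from one of the knock-down. The labels name no untransformed line, and nothing says whether samples of a group came from separate cultures, so a p-value rests on a spread among samples that may be only technical.

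RNA was hybridised to 1-colour Agilent arrays, 1 per sample. A level below is the deposited log2 signal relative to the 75th percentile of its array, so a level above 0 lies above that percentile. Levels of different probes cannot be set against each other as amounts of RNA. Between 24497 and 26404 probes per array were well above background, and precision is limited by there being 1 array per sample. The arrays lay on 2 slides, with knock-down 2 alone on slide 2, so within-slide values rest on knock-down 1 against both controls. Fbl had levels of 5.98 and 5.94 in the knock-down samples, against 8.63 and 8.12 in the controls, a log2 change of −2.41 ± 0.25 (SE, n = 2 per group, limma adjusted p = 4.97e-04). All 8 embryonic stem cell markers examined, among them Pou5f1, Sox2 and Nanog, were bright enough to be tested. None passed in limma, where 6.17% of all tested probes did, and 5 were lower and 3 higher. An unadjusted p under 0.05, which 20.0% of all tested probes had, was found for 2 of the 8, Nanog (−0.82, adjusted p = 0.0616) and Zfp42 (−0.61, adjusted p = 0.185). With normexp background correction Nanog fell (−0.79, adjusted p = 0.0209). The summed signal of the list, as log2, was 9.77 and 10.16 in the knock-down samples, against 10.04 and 9.76 in the controls, and was set mostly by its brightest probe, that of Dppa5a.

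Proteins of the Slc25 family sit in the inner mitochondrial membrane and carry nucleotides, phosphate, amino acids, keto acids, cofactors and ions between the cytosol and the matrix. They are built from repeats of a pair of membrane helices and mostly exchange one substrate for another. Uncoupling proteins belong to the same family, and of these UCP1 lets protons back into the matrix, whereas MTCH1, MTCH2 and SLC25A46 lie in the outer membrane. In stem cells, as in other growing cells, this traffic links glycolysis, the citric acid cycle, one-carbon metabolism and haem synthesis.

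No member of the family passed the test. Of the 57 probes that could be tested, which read 42 genes, 0 rose and 0 fell in limma at an adjusted p of 0.05, whereas 6.17% of all 25095 tested probes passed (3.71% rose and 2.46% fell). At an unadjusted p under 0.05 there were 3 member probes, or 5.26% of them, against 20.0% of all tested probes. The member changes ran from −0.62 to 0.54 on the log2 scale, and 16.7% of all tested probes had a change larger in size than any of these. The median change was −0.04 over the 57 member probes and −0.06 over all tested probes. The member median was 0.09 without control 1 and −0.22 without control 2, so its sign depended on which control was used. It also turned to 0.010 when the 75th percentile was taken over bright probes only and to 0.0014 with normexp background correction. By the probe with the highest mean level of each gene, 21 genes were higher and 21 lower in the knock-down samples.

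A missed threshold does not show that a level stayed the same. The standard errors of the members ran from 0.22 to 0.37, and the smallest change called anywhere on the array was 0.86 in size. The 95% intervals of 50 member probes lay entirely between −1 and 1, so for these a change of more than 2-fold lay outside the interval. For the other 7 the interval reached past that limit on one side, and the lowest bound was −1.43 (Slc25a29) and the highest 1.04 (Slc25a17). Like the p-values, these intervals rest on a spread among samples that may be only technical. They are not adjusted for the number of probes. All 57 tested probes were well above background on all 4 arrays. The plot of changes by role shows 41 of the tested genes with their intervals.

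**Figure D1:**
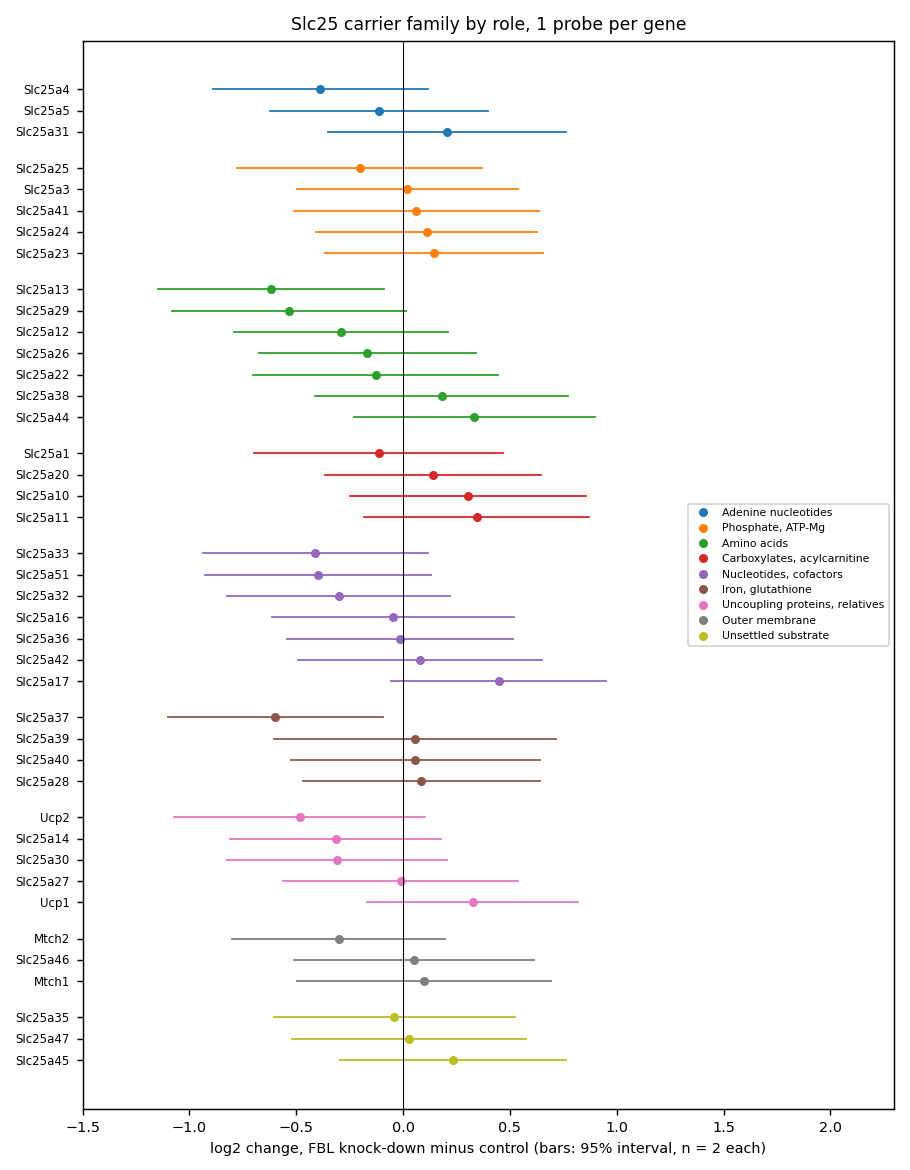
Log2 change (FBL knock-down minus control, horizontal axis) of 41 of the 42 tested carrier genes at the probe with the highest mean level, grouped and coloured by role; bars are 95% intervals from limma with n = 2 per group. Intervals of Slc25a13 and Slc25a37 lie below 0, and no gene passes after adjustment over all tested probes.

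The controls differed from each other by more than the knock-down samples did. The median size of the difference was 0.39 between the controls and 0.11 between the knock-down samples over the 57 member probes, and 0.38 and 0.12 over all tested probes. Control 1 lay above control 2 at 40 member probes (70.2%, against 59.9% of all). The difference between controls was larger than the change itself at 38 member probes (66.7%, against 58.0% of all). Both knock-down values lay between the controls at 22 of the 57 member probes (38.6%, against 26.4% of all). Knock-down and control values did not overlap at 26 member probes (45.6%, against 51.4% of all), of which 17 were lower (30.6% of all probes were) and 9 higher (20.8% of all) in the knock-down samples. These values are shown in the plot of change against control spread.

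**Figure D2:**
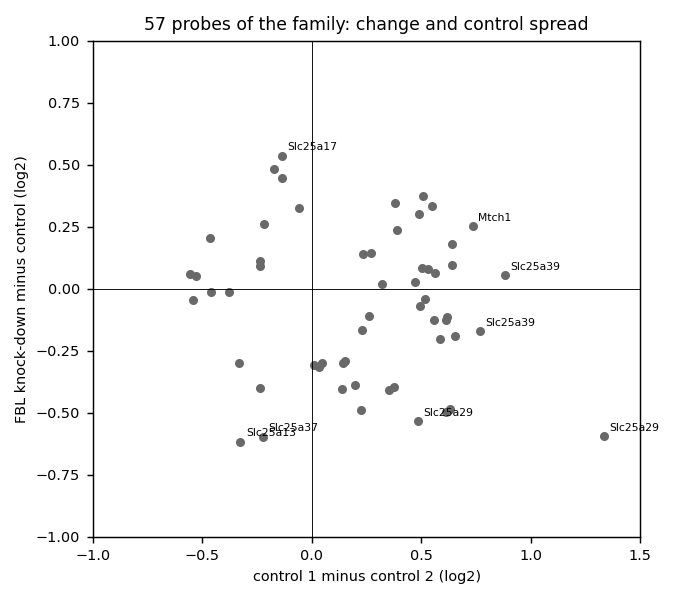
Difference between controls (control 1 minus control 2, log2, horizontal axis) and change (FBL knock-down minus control, log2, vertical axis) of the 57 tested member probes; each point is a probe. The axes share the control values; Slc25a29 stands furthest right with controls of −1.48 and −2.81, and the 3 probes of Slc25a17 lie together at the top.

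Leaving out 1 control brought single members past the threshold. Without control 1, Slc25a13 (log2 change −0.78, limma adjusted p = 0.0385) and Slc25a37 (−0.71, adjusted p = 0.0339) fell and Slc25a44 (0.61, adjusted p = 0.0434, named after its values were seen) rose, where 21.2% of all probes passed. Without control 2, Slc25a29 (−0.78, adjusted p = 0.0358) and Ucp2 (−0.80, adjusted p = 0.0376) fell at both of their tested probes, where 12.8% of all probes passed. The change of Slc25a44 was 0.06 without control 2. Without control 1 the change was −0.29 for Slc25a29, −0.24 for Slc25a33 and −0.21 for Slc25a51, and without control 2 it was 0.16 for Slc25a11, so the size of each of these moved by more than 1.5 times. No member was called in both of these fits, and in both the spread comes from the 2 knock-down samples only.

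Among adenine nucleotide carriers, which exchange matrix ATP for cytosolic ADP, 0 of 3 tested genes passed. Slc25a4, the ANT1 form that dominates in heart and muscle, had levels of 6.06 and 5.99 in the knock-down samples, against 6.51 and 6.32 in the controls. Its knock-down values lay below both controls, with a log2 change of −0.39 ± 0.23 (adjusted p = 0.387), and its second probe gave −0.40. Slc25a5, the ANT2 form of proliferating cells, had 8.31 in both knock-down samples, against 8.55 and 8.29 in the controls. Those knock-down values lay between the controls, and the change was −0.11 (95% interval −0.62 to 0.40). Slc25a31, a form best known from the germ line, had a change of 0.20 (−0.35 to 0.76), with levels of −4.24 and −4.48 in the knock-down samples that overlapped the control levels of −4.79 and −4.33.

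Among phosphate carriers, changes ran from −0.20 to 0.14. Slc25a3, which brings in the phosphate used by ATP synthase, had levels of 6.16 and 6.19 in the knock-down samples, against 6.31 and 5.99 in the controls, a change of 0.02 (95% interval −0.50 to 0.54). The ATP-Mg/phosphate carriers adjust the adenine nucleotide pool of the matrix in response to calcium. Of these, Slc25a23 had a change of 0.14, Slc25a24 one of 0.11 and Slc25a25 one of −0.20, with −0.19 and −0.13 at the other 2 probes of Slc25a25. None of the 5 tested genes of this group passed.

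The largest member change was at an amino acid carrier. Slc25a13 encodes citrin, which exports aspartate for glutamate and a proton as a step of the malate-aspartate shuttle. Its levels were 2.72 and 2.53 in the knock-down samples, against 3.08 and 3.41 in the controls. Both knock-down values lay below both controls, and the level was 1.53-fold lower (log2 change −0.62 ± 0.24, 95% interval −1.15 to −0.09, unadjusted p = 0.0261, adjusted p = 0.177 in limma across all probes). Within slide 1 the change was −0.52, and with normexp background correction it was −0.73 and passed (adjusted p = 0.0427), as the only member called under that setting, where 4.8% of all probes were called. Its paralog Slc25a12, aralar, which has the same exchange, had 3.49 and 3.38 in the knock-down samples, against 3.80 and 3.65 in the controls. That change was −0.29 (−0.79 to 0.21), and the intervals of the paralogs overlapped.

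Slc25a29, a carrier of arginine and lysine, had levels of −1.79 and −1.81 in the knock-down samples, against −1.02 and −1.51 in the controls, a change of −0.54 ± 0.25 (adjusted p = 0.262). Its second probe gave −0.59 ± 0.37, but control 2 there, at −2.81, lay beside the knock-down values of −2.65 and −2.83. The remaining tested genes of the group were Slc25a26, which brings S-adenosylmethionine into the matrix (−0.17), Slc25a22, a glutamate carrier (−0.13), Slc25a38, which supplies glycine for haem synthesis (0.18), and Slc25a44, a carrier of branched-chain amino acids (0.33). None of the 7 tested genes passed, with 5 lower and 2 higher and a median of −0.17. Slc25a18, a second glutamate carrier, was well above background on 1 array of each group and was not tested.

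RefSeq promoters of GRCm38.p6, from 250 bases before to 50 after a gene's start, were found for 32 of the 42 tested genes, as 40 windows. Both strands were searched for CACGTG (the E-box, which Myc and related factors bind), the NRF1 palindrome, TGATGNAAN (the C/EBP-ATF response element) and TCAAGGTCA (ERR-like). CACGTG was present in 7 of the 40 windows (17.5%, against 7.15% of all 32851 windows). The 7 windows hold 6 distinct sites in 6 genes, because a pair of overlapping windows of Slc25a14 shares a site. Counted by gene, 6 of 32 members had CACGTG in a window (18.8%, against 8.09% of all 27025 genes with a window). These were Slc25a1, Slc25a13, Slc25a14, Slc25a31, Slc25a33 and Slc25a36, with changes of −0.11, −0.62, −0.32, 0.20, −0.41 and −0.01 in that order. The NRF1 palindrome was in 4 of the 40 windows (10%, against 6.23%), and TGATGNAAN and TCAAGGTCA were in 0 of them, against 3.95% and 0.423% of all. A match of letters is a description and not a measured binding site. The windows of the 4 members with the largest changes among those with exactly 1 window are shown 5′ to 3′, with CACGTG in capitals and no other motif found in them. They are Slc25a13 (chr6:6217124-6217423, minus strand), Slc25a29 (chr12:108835827-108836126, minus strand), Ucp2 (chr7:100493108-100493407, plus strand) and Slc25a17 (chr15:81360716-81361015, minus strand).
Slc25a13: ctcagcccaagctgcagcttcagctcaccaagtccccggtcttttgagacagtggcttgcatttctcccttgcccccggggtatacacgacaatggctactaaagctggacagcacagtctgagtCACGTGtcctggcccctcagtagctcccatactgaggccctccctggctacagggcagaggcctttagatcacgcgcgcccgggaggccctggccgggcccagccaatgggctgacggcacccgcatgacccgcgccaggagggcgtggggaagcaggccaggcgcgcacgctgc
Slc25a29: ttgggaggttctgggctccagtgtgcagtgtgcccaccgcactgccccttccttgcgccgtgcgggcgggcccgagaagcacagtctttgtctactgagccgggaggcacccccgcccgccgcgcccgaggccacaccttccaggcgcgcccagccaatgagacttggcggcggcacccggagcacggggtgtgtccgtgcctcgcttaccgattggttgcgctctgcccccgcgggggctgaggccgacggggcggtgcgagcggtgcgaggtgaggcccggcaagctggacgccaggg
Ucp2: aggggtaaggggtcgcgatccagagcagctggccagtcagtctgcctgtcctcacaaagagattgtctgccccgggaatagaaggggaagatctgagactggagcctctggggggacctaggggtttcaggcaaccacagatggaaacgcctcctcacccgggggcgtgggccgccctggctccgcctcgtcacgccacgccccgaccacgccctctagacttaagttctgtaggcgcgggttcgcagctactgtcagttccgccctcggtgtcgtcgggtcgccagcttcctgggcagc
Slc25a17: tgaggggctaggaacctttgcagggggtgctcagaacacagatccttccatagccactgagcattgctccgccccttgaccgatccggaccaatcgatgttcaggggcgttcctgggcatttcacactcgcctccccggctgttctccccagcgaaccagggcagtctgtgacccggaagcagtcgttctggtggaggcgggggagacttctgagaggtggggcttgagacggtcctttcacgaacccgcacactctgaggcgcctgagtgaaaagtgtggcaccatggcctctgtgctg

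Carriers of nucleotides and cofactors held the largest positive and several of the larger negative changes. Slc25a17 encodes a peroxisomal member of the family that carries coenzyme A, FAD and NAD. At the probe with its highest mean level it had 4.50 and 4.35 in the knock-down samples, against 3.91 and 4.04 in the controls. Both knock-down values lay above both controls there and at its other 2 probes, with log2 changes of 0.45 ± 0.22, 0.48 ± 0.22 and 0.54 ± 0.23 and limma adjusted p of 0.308, 0.268 and 0.221. Within slide 1 the same probes gave 0.52, 0.51 and 0.63. These probes read the same 4 RNA samples and are no replicates of each other.

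Slc25a33, a pyrimidine nucleotide carrier known as PNC1, had 4.14 and 4.02 in the knock-down samples, against 4.67 and 4.31 in the controls. The change was −0.41 ± 0.24 (adjusted p = 0.381) and −0.49 ± 0.23 at its second probe, with both knock-down values below both controls at either. Its paralog Slc25a36 had −1.32 and −1.20 in the knock-down samples, within the control values of −1.44 and −1.06, and a change of −0.01 (95% interval −0.54 to 0.52). Slc25a51, which carries NAD+ into the matrix, had 0.93 and 0.83 in the knock-down samples, against 1.47 and 1.09 in the controls (−0.40 ± 0.24). Both knock-down values of Slc25a51 lay below both controls. None of the 8 tested genes of this group passed, with 3 higher and 5 lower.

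**Figure D3:**
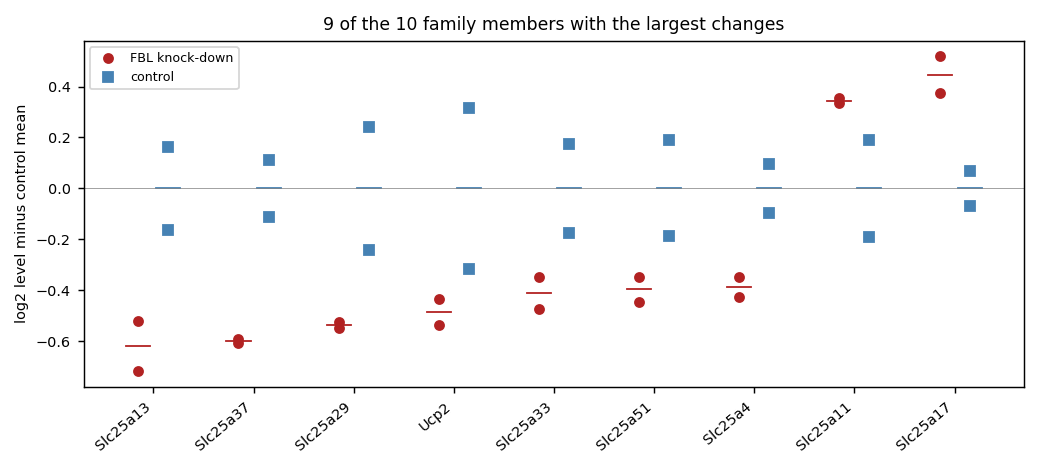
Log2 level minus the control mean (vertical axis) of 9 of the 10 carrier genes with the largest change, at the probe with the highest mean level; red circles are the 2 FBL knock-down samples, blue squares the 2 controls, and short lines the group means. In each of the 9 the groups do not overlap, as at 51.4% of all tested probes, with 7 lower and 2 higher in the knock-down samples. These genes were chosen for the size of this same change, and none passes the adjusted test.

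Of the iron and glutathione carriers, 0 of 4 tested genes passed. Slc25a37, mitoferrin-1, which imports iron for haem in red cell precursors, had −0.78 and −0.77 in the knock-down samples, against −0.29 and −0.07 in the controls. Its knock-down values lay below both controls and it was 1.51-fold lower (−0.60 ± 0.23, 95% interval −1.10 to −0.09, unadjusted p = 0.0246, adjusted p = 0.172 in limma). Its second probe gave −0.30 ± 0.22, and 0.04 with normexp, so the direction there depended on the treatment of background. Mitoferrin-2, Slc25a28, the broadly expressed form, had 3.47 and 3.58 in the knock-down samples, between the controls at 3.69 and 3.19 (0.08, 95% interval −0.47 to 0.64). Slc25a39, a glutathione carrier, had 6.18 and 6.19 in the knock-down samples, against 6.57 and 5.69 in the controls, so that its change of 0.06 rested on controls 0.88 apart; its second probe gave −0.17. Slc25a40, its paralog, had a change of 0.06 (−0.53 to 0.64).

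Of the uncoupling proteins and their relatives, 0 of 5 tested genes passed. Ucp2, found in many tissues and in stem cells, had 0.66 and 0.55 in the knock-down samples, against 1.41 and 0.77 in the controls. Knock-down values lay below both controls, the change was −0.48 ± 0.26 (adjusted p = 0.349), and a second probe gave −0.50 (−0.08 with normexp). Most of this rested on control 1, without which the change was −0.17. Ucp1, the heat-producing protein of brown fat, had −4.08 and −4.17 in the knock-down samples, against −4.48 and −4.42 in the controls (0.33, 95% interval −0.17 to 0.82). With normexp background correction the change of Ucp1 was −0.11, so its direction depended on the treatment of background. Ucp3, the muscle form, was not well above background on any array. Slc25a14 (−0.32) and Slc25a30 (−0.31), relatives of the uncoupling proteins, were lower without passing, and Slc25a27 had −0.01.

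Keto acid, citrate and acylcarnitine carriers were mostly higher without passing (0 of 4 tested). Slc25a11, the malate-oxoglutarate carrier and the second transporter of the malate-aspartate shuttle, had 4.26 and 4.24 in the knock-down samples, against 4.09 and 3.72 in the controls (0.34 ± 0.24, adjusted p = 0.471). This was opposite in sign to Slc25a12 and Slc25a13 of the same shuttle, a contrast that was not tested. Slc25a10, the dicarboxylate carrier, had a change of 0.30, Slc25a20, the carnitine-acylcarnitine carrier, one of 0.14, and Slc25a1, which exports citrate for lipid synthesis, one of −0.11.

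Of the outer membrane members, 0 of 3 passed. Mtch2, which inserts proteins into that membrane, had 5.0 and 4.91 in the knock-down samples, against 5.33 and 5.18 in the controls (−0.30 ± 0.22, and −0.40 at a second probe). Mtch1 had 6.81 and 6.99 in the knock-down samples, between the controls at 7.12 and 6.48 (0.10, and 0.25 at a second probe). Slc25a46, linked to the shape of mitochondria, had changes of 0.05 and 0.26 at its 2 tested probes. The 3 tested genes of unsettled substrate, Slc25a35, Slc25a45 and Slc25a47, had changes from −0.04 to 0.23.

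Probes of 1 gene mostly pointed the same way. Of 13 genes with more than 1 tested probe, 11 had the same sign at every tested probe, the exceptions being Slc25a27 and Slc25a39, and the largest gap between changes at probes of a gene was 0.30 (Slc25a37). The other 10 of the 67 probes were not bright on both arrays of either group. Among them were the only probes of Slc25a18, Slc25a21, Slc25a48 and Ucp3, so 4 genes have no test. No member was bright in 1 group and dim in the other.

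Other genes of mitochondrial transport gave 0 calls, where the share called among all genes would give few in lists of this length. Most enzymes of the same routes did not pass either, and single ones changed several-fold. Of 19 genes of the machinery that imports carriers, 0 passed in limma and 2 had an unadjusted p under 0.05. Their median was −0.19, with Tomm20, a receptor of the outer membrane, at −0.24 and Timm22, the channel that inserts carriers, at 0.27. Of 18 other mitochondrial transporters, 0 passed and 4 had an unadjusted p under 0.05, with a median of −0.20. Of all tested probes, 20.0% had an unadjusted p under 0.05 in limma, and their median change was −0.06. Of 38 enzymes of the routes that carriers feed, 1 rose and 5 fell, with a median of −0.19. The share called among all genes, at the probe with the highest mean level, was 6.47%. Of 11 regulators of mitochondrial biogenesis, 2 fell, Myc and Ppargc1b. Myc, a growth-promoting transcription factor, had levels of 1.36 and 1.20 in the knock-down samples, against 2.28 and 2.23 in the controls (−0.98 ± 0.22, limma adjusted p = 0.0304). Myc missed the threshold within slide 1 (change −0.90, adjusted p = 0.623), and likewise when knock-down 1 was left out (−1.06, adjusted p = 0.273). Ppargc1b, a coactivator of mitochondrial genes, had a change of −1.06 ± 0.22 (limma adjusted p = 0.0205). Ppargc1b missed the threshold within slide 1 (−1.12, adjusted p = 0.271), and also when knock-down 1 was left out (−1.0, adjusted p = 0.342). With normexp it missed it too, and the change there was −0.61 (adjusted p = 0.122).

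Mthfd2, the mitochondrial folate dehydrogenase, fell 3.80-fold, with levels of −0.20 and −0.30 in the knock-down samples, against 1.78 and 1.57 in the controls (−1.93 ± 0.23, limma adjusted p = 9.99e-04). Slc25a32, the carrier linked to folate and FAD in the matrix, had −0.10 and −0.22 in the knock-down samples, against −0.02 and 0.31 in the controls (−0.30, 95% interval −0.82 to 0.22). Both knock-down values of Slc25a32 lay below both controls, and its interval did not reach the interval of Mthfd2 (−2.43 to −1.42). Gpt2, which makes alanine from glutamate in the matrix, fell 4.14-fold (−2.05 ± 0.22, adjusted p = 6.42e-04), with 0.87 and 0.82 in the knock-down samples, against 2.88 and 2.92 in the controls. The glutamate carrier Slc25a22 had −0.40 and −0.21 in the knock-down samples, between the controls at 0.10 and −0.46. Differences between a carrier and an enzyme were not tested.

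Pck2, the mitochondrial phosphoenolpyruvate carboxykinase, fell 4.61-fold (−2.20 ± 0.27, adjusted p = 0.00123). The other 2 enzymes that fell, named after their values were seen, were Aldh18a1 of proline and ornithine synthesis (−1.88 ± 0.24) and Mthfd1l, the formate-producing synthetase of mitochondria (−0.95 ± 0.23, adjusted p = 0.0381). Mthfd1l missed the threshold with quantile normalization (−0.88, limma adjusted p = 0.0636). It also missed the threshold within slide 1 (change −0.82) and when knock-down 1 was left out (change −1.07). Cpt1c, a carnitine palmitoyltransferase form best known from neurons, rose 3.26-fold, with 3.02 and 3.1 in the knock-down samples, against 1.61 and 1.09 in the controls (1.71 ± 0.25, adjusted p = 0.00317). Cpt1a, the broadly expressed form, had a change of −0.67 ± 0.23 (adjusted p = 0.125), beside 0.14 for the acylcarnitine carrier Slc25a20.

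**Figure D4:**
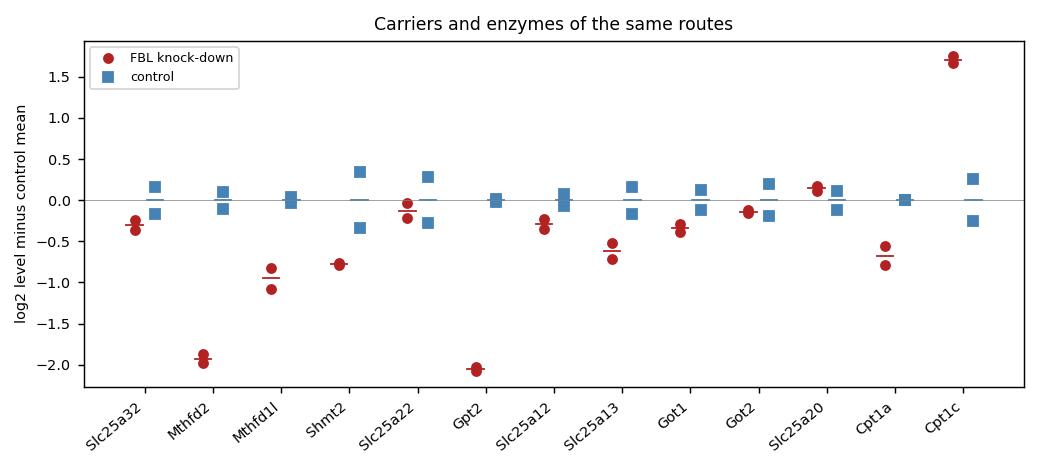
Log2 level minus the control mean (vertical axis) of carriers and of enzymes of the same routes, in red for the 2 FBL knock-down samples and in blue for the 2 controls, with short lines for the means. The set of genes shown was picked by hand. Mthfd2 and Gpt2 lie near −2, Cpt1c lies near 1.7, and the carriers Slc25a32, Slc25a22, Slc25a12, Slc25a13 and Slc25a20 lie between −0.62 and 0.14. The enzymes Got1 (−0.34) and Got2 (−0.14) lie within the range of these carriers, and Mthfd1l, Shmt2 and Cpt1a lie between −0.95 and −0.67.

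Markers of other cell types were examined because several carriers are forms of particular tissues. The share called among all genes was 6.47%. Of the muscle markers, 2 of 6 rose, Myh7 (1.54) and Myog (1.33), both named after their values were seen, as are the markers below. Myog missed the threshold within slide 1 (adjusted p = 0.0852) and with normexp (0.43, adjusted p = 0.376). The summed signal of the list, as log2, was 1.68 and 1.5 in the knock-down samples, against 0.74 and 0.39 in the controls. Slc25a4, the muscle form of the adenine nucleotide carrier, was lower without passing (−0.39, limma adjusted p = 0.387). Of 4 tested brown fat markers 0 rose and 1 fell, Adipoq, with a summed level of 0.35 and 0.39 in the knock-down samples, against −0.12 and −0.51 in the controls. With normexp Adipoq missed the threshold (−0.56, adjusted p = 0.177) and Cidea rose (0.74, adjusted p = 0.0366). Trophectoderm markers (1 rose and 1 fell of 5), primitive endoderm markers (1 fell of 5) and fibroblast markers (0 passed of 3, with Col3a1, Dcn, Lum and Pdgfra too dim to test) had summed levels of −1.03 and −0.99, −2.16 and −2.10, and 1.68 and 1.82 in the knock-down samples. In the controls these sums were −1.73 and −1.96, −1.05 and −1.78, and 2.77 and 2.10. The fibroblast sum was set mostly by Thy1 (−0.75, limma adjusted p = 0.142), whereas Col1a1 (0.47) and Col1a2 (0.26) were higher without passing. Thy1 fell with normexp (−0.91, adjusted p = 0.00444). The brown fat sum was set mostly by Cidea, and the muscle sum of the knock-down samples mostly by Myh7. The trophectoderm marker that rose, Krt7, also passed within slide 1 and with normexp. The markers that fell, Elf5 of trophectoderm and Sox7 of primitive endoderm, missed the threshold with normexp. There Elf5 turned to 0.12 (adjusted p = 0.890) and Sox7 had −0.21 (adjusted p = 0.760). Elf5 missed the threshold within slide 1 too (change −1.03). Its level in knock-down 2 was −7.21, under the lowest level well above background on that array (−5.50). Elf5 was thus tested only through its controls. In knock-down 2, Sox7 (−5.35) and Adipoq (−5.49) lay close to that limit. In bulk RNA a change in the share of cells of a type and a change in RNA per cell cannot be told apart, and the part of such cells in the carrier values was not tested.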

How the data were processed

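Per the file headers, Agilent Feature Extraction 10.7.3.1 made the scanner tables, for an array design annotated on mm8. The deposited processed intensity is background-subtracted and spatially detrended, with no scaling from array to array. Values in the deposited table are log2: on each array 99.9% of probes lay within 0.01 of the log2 processed intensity minus 1 constant, and the 75th percentile was at 0 on each, within 0.01. Its direction is that of the signal, its probes are not centred, and its column medians were −3.94 and −3.91 for the knock-down samples and −3.85 and −3.98 for the controls. No source used here names the software that made it.

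From that table, the 25095 of 41174 probes that were bright (well above background) on 2 arrays of 1 group or of both were compared with limma 3.58.1 in R 4.3.3 (lmFit and eBayes, two-sided), with Benjamini-Hochberg adjustment over all of them and a threshold of 0.05. Each change is knock-down minus control, and its error is the standard error from limma. Of all probes, 24375 were named through their accession by the RefSeq gene table (GRCm38.p6) and 16799 were not. A gene was represented by its tested probe with the highest mean level. The fit was tested on simulated data.

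The members, the partner and marker lists and the role groups were chosen with earlier results of these data known. Part of the genes were named by rule: Fbl, called members, the 10 uncalled members with the largest change, the 5 with the highest mean level, paralog sets, and up to 3 called genes per direction of each partner list. The remaining members and partner genes given by name, such as Slc25a32, Slc25a22, Tomm20, Timm22, Cpt1a and Got1, were picked by hand outside this rule. The scanner files hold no mean spot signal, so normexp (offset 50) used the median signal. In all, 16 alternatives were fitted. The values of 1 member are in the counts but are not reported here by name.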

Additional observations from a re-analysis of the deposited data

How the results depend on the processing

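The counts of members called were 0 rising and 0 falling probes in 13 of 16 alternatives. With normexp background correction 1 member probe fell, reading 1 gene. Leaving out 1 sample in turn gave 0 to 2 rising and 0 to 4 falling member probes, 0 to 2 rising and 0 to 2 falling member genes, 1 to 7 rising and 4 to 13 falling partner genes, and 459 to 2981 rising and 227 to 2349 falling probes over the whole array. The slide as a block, which equals the fit without knock-down 2, gave 459 rising and 227 falling probes and 4 falling partner genes. Over all probes, 400 fell with quantile normalization against 618 as reported, 983 with a trend in the prior, and 1452 rose and 1187 fell with trend and robust. Among partner genes, 12 fell with trend, and 2 rose and 11 fell with trend and robust, against 1 and 7 as reported. With no filter on dim probes 0 probes rose and 0 fell on the whole array, partner genes and Fbl included (0 rising and 0 falling, limma adjusted p = 0.105 for Fbl), so that setting says nothing about the family.

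The deviations of same-numbered samples had a correlation of 0.024. This value cannot decide whether the replicate numbers of the titles pair the samples. It rests on a single difference per group, and the knock-down samples lay on different slides. With the number as a replicate block, 0 member probes rose and 0 fell, and 1263 probes rose and 1006 fell over the whole array.

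Of 57 member probes, 28 kept 1 direction in every alternative fitted to them and 52 kept it within slide 1. As reported, no probe with a change under 0.86 in size was called on the whole array, a limit that differed between settings.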
